A study of Mus musculus with 4 samples.

Results

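RIKEN-named genes carry placeholder symbols that end in Rik, and 249 of the 812 such genes in the deposited table were expressed in DMSO-treated mouse neurons at a mean of at least 5 CPM. These are counts of reads set to the same total in every library. The table lists 18854 genes in all, of which 12069 reach that level. GENCODE vM21, or RefSeq where GENCODE had no match, classed 153 of the 249 as noncoding and 92 as protein-coding, and 4 had no class. GENCODE gave the class of 212 members and RefSeq that of 33. Both lists are described apart below. The DMSO values that chose the members are also the denominator of each fold change, so the counts of called members are read as descriptions beside the background of all genes. Members chosen by 1 DMSO library and compared with the other DMSO library are given below, in which the rule and the fold change share no DMSO library.

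The symbols date from the full-length mouse cDNA collection made at RIKEN, in which a transcript without a known function received the name of its clone. Some of these transcripts have since been shown to encode proteins and many are long noncoding RNAs, which are spliced and capped like mRNAs but have no long reading frame. Long noncoding RNAs lie on the strand opposite a protein-coding gene, start beside its promoter and run away from it, or lie between genes. Some serve as hosts, long transcripts whose introns or exons release a microRNA or a small nucleolar RNA.

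The cells were cortical neurons from wild-type mice after 15 days in culture. Treated cultures received the p53 activator Nutlin-3 for 2 days, and the controls received its solvent DMSO. Nutlin-3 binds Mdm2, the ubiquitin ligase that keeps p53 low. Each group had 2 libraries of ribosome-depleted total RNA, and no label says whether these were independent cultures. The p-values therefore reflect only the spread between these libraries, mostly pooled over genes, which may be technical. No genetic change was labelled in either group.

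The libraries held 19065197 and 17716272 reads with the activator and 14584247 and 14968028 with DMSO. Mitochondrially encoded RNAs took 8.98% and 10.01% of the listed reads with the activator, against 15.7% and 14.3% with DMSO. Nuclear protein-coding genes took 84.5% and 83.9% with the activator, against 74.9% and 77.2% with DMSO. CPM share a fixed total, so this difference moves with every value below, and its part in the results was not tested beyond the rescaled fits. Of 6 neuronal markers, 4 were called higher and Rbfox3 lower, and their summed level was 5378 and 5414 CPM with the activator and 4984 and 5526 CPM with DMSO. The 5 astrocyte markers had 0 calls and summed to 1000.4 and 999 CPM with the activator, against 915 and 895 CPM with DMSO. Oligodendrocyte markers summed to 44.2 and 44.3 CPM with the activator and 36.7 and 38.9 CPM with DMSO, fibroblast markers to 14.6 and 17.3 CPM against 18.1 and 17.8 CPM, and microglial markers to 3.67 and 2.88 CPM against 4.53 and 4.34 CPM, with 0 calls in each list. In such bulk samples, fewer cells of a type and less RNA per cell cannot be told apart. Neither Trp53, which encodes p53, nor its targets Mdm2 and Cdkn1a were called, with log2 fold changes of 0.07, -0.16 and 0.19 (adjusted p = 0.761, 0.166 and 0.215, limma).

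Members were searched for microRNA and small nucleolar RNA genes within their spans only where GENCODE gives a position. Among these members, 5 noncoding genes and 1 protein-coding gene span microRNA genes on their own strand. Their mature products are shown first because they are the functional RNAs these hosts are known for. They are RefSeq sequences of GRCm38.p6, written 5′ to 3′ with the seed, bases 2 to 8, in capitals. A seed is the stretch with which a microRNA pairs to its target mRNAs. A330023F24Rik on chromosome 1 hosts Mir29b-2 and Mir29c, whose 3p products share a seed.
miR-29b-3p: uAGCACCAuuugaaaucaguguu
miR-29c-3p: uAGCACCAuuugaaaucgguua

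A230057D06Rik and A330076H08Rik, neighbours on chromosome 7, host 7 and 1 genes of the miR-344 family. Their 3p products fall into several seed groups. miR-344d and miR-344e share one seed, miR-344c and miR-344 share another, and miR-344h and miR-344b each have their own.
miR-344d-3p: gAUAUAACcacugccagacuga
miR-344e-3p: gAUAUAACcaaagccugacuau
miR-344h-3p: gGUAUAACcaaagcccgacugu
miR-344b-3p: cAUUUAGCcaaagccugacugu
miR-344c-3p: uGAUCUAGucaaagccugacagu
miR-344-3p: uGAUCUAGccaaagccugacugu
On the 5p side, 4 products of the family share the seed GUCAGGC, as in the product of both Mir344 and Mir344-2.
miR-344-5p: aGUCAGGCuccuggcuagauuccagg

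The other hosts carry 1 microRNA gene each. 5330434G04Rik on chromosome X hosts Mir325, C130071C03Rik on chromosome 13 hosts Mir9-2, which makes the brain-rich miR-9, and the protein-coding 5031439G07Rik on chromosome 15 hosts Mir1249.
miR-325-3p: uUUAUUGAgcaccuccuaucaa
miR-9-5p: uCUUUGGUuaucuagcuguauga
miR-1249-3p: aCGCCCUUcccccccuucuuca

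The first comparison asked how the 153 noncoding members differed between activator-treated and DMSO-treated neurons. In total 82 fell, 2 rose and 69 did not pass the test. The falls ran to more than 2-fold in 17 genes and to at least 1.5-fold in 62, and both rises were smaller than 1.5-fold. The median log2 fold change was -0.44, with quartiles of -0.79 and -0.058 and a range of -1.28 to 0.37. The test was limma on log2(CPM + 1), a scale that understates the change of low genes, with Benjamini-Hochberg adjustment over 16654 genes and a threshold of 0.05.

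The members that fell were 53.6% of the noncoding list and those that rose 1.31%. Over all genes tested 16.3% fell and 16.9% rose. Among the 2931 nuclear noncoding genes tested, 49.6% fell and 1.71% rose, with a median of -0.47. The members stood near these shares, but this background has no minimum of 5 CPM in DMSO. The 2 groups of libraries did not overlap for 103 members that were lower and 14 that were higher with the activator. Among all nuclear noncoding genes these shares were 71.4% and 6.07%, and among all genes 30.9% and 36.6%. Noncoding genes with other kinds of names, at the same minimum of 5 CPM in DMSO, had 765 of 1017 lower (75.2%) and a median of -0.69. The members thus fell less often than these genes at the same minimum. Most of the 1017 were the 828 predicted genes with symbols starting with Gm, of which 82.2% fell, while 44.4% of the remaining 189 fell and 10.6% rose. The summed level of the noncoding members was 2676 and 2399 CPM with the activator, against 3561 and 3352 CPM with DMSO.

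All 82 falls and both rises had groups that did not overlap. Without DMSO replicate 1 the falls numbered 64, and without any other single library 67 to 81. Without activator replicate 2 the rises numbered 4, and without any other single library 1. When members were those at 5 CPM or more in DMSO replicate 1 and the fit left that library out, 65 noncoding members fell and 1 rose, with a median of -0.37. With the roles of the DMSO libraries exchanged, 76 fell and 1 rose, with a median of -0.48.

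**Figure D1:**
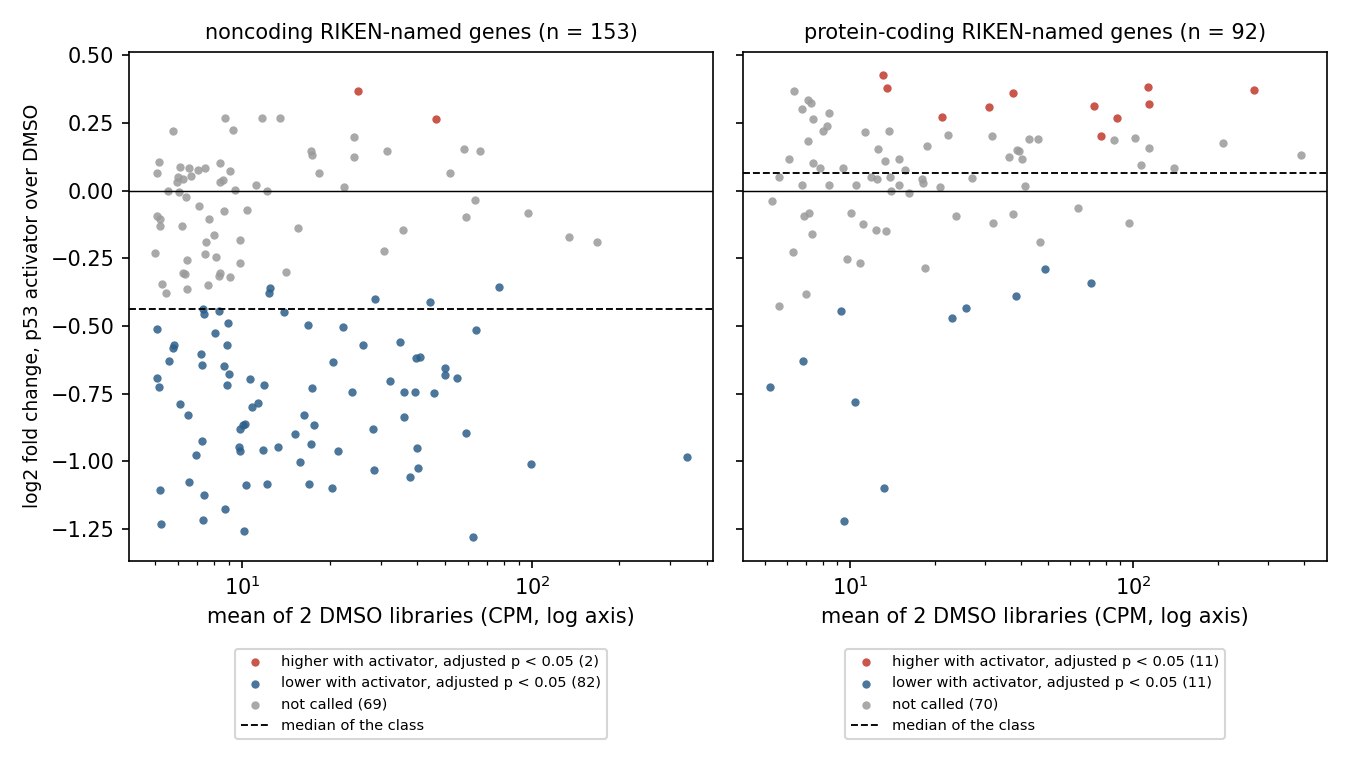
Log2 fold change, activator over DMSO, of each member (vertical axis) against its mean CPM in the 2 DMSO libraries (log axis), for noncoding members on the left and protein-coding members on the right, with the median of each class dashed. Falls (blue) run down to -1.28 among noncoding members around a median of -0.44, whereas protein-coding members lie around a median of 0.064.

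Several of the most abundant noncoding members split into a group with strong falls and a group that was not called. 9330159H11Rik, a noncoding RNA known only from RefSeq here, had 187 and 158 CPM with the activator, against 350 and 333 CPM with DMSO. Both activator libraries were far below both DMSO libraries, with a log2 fold change of -0.98 ± 0.08 (SE; adjusted p = 1.92e-19, limma). C130071C03Rik, the miR-9-2 host, had 155 and 138 CPM with the activator and 176 and 159 CPM with DMSO. Its groups were next to each other without overlap, and its log2 fold change of -0.19 ± 0.08 did not pass the test (adjusted p = 0.0525, limma), although it did in 8 of 16 alternative fits. The transcribed pseudogene 6820431F20Rik had 123 and 115 CPM with the activator, against 135 and 133 CPM with DMSO, and did not pass either (-0.17 on the log2 scale, adjusted p = 0.0787, limma).

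9630009A06Rik lies inside Ctnnd2, on the opposite strand. It had 51.2 and 46.1 CPM with the activator, against 103 and 94.3 CPM with DMSO, and both activator libraries were far below both DMSO libraries (log2 fold change -1.01 ± 0.08, adjusted p = 1.12e-18, limma). Ctnnd2, which encodes the neuronal adhesion protein delta-catenin, had 323 and 329 CPM with the activator and 300.2 and 312 CPM with DMSO and was not called (0.09 on the log2 scale, adjusted p = 0.392). B930095G15Rik, which overlaps Farp1 on the same strand, had 92.9 and 89.3 CPM with the activator and 97.2 and 95.7 CPM with DMSO, and was not called (adjusted p = 0.457, limma). 5830417I10Rik is a pseudogene that starts within 2000 bases of the start of Syt11, on the opposite strand. It had 59.8 and 59.5 CPM with the activator, against 78.6 and 74.9 CPM with DMSO. It fell by 0.36 on the log2 scale (SE 0.08, adjusted p = 0.000402, limma). Syt11, a synaptotagmin of vesicle traffic, had 781 and 848 CPM with the activator, against 626 and 676 CPM with DMSO, and rose by 0.32 (adjusted p = 0.00264), but was not called without activator replicate 2 (adjusted p = 0.123). The fall of 5830417I10Rik was lost in limma without a trend of the spread (adjusted p = 0.0581). In that fit the rise of Syt11 was lost too (adjusted p = 0.0863). It was also lost after quantile normalization, cyclic loess and scaling to nuclear protein-coding reads (adjusted p = 0.145, 0.286 and 0.0782, limma).

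The largest fall was that of 5031426D15Rik, a noncoding RNA annotated only in RefSeq, at 27.9 and 22.6 CPM with the activator, against 63.8 and 61.2 CPM with DMSO (log2 fold change -1.28 ± 0.09, adjusted p = 2.34e-21, limma). 1700080N15Rik, on the strand opposite Frmd4a, had 3.99 and 3.33 CPM with the activator, against 10.8 and 9.49 CPM with DMSO, and fell by 1.26 (SE 0.17, adjusted p = 1.81e-09). Frmd4a, which encodes a scaffold protein of cell polarity, fell as well, with 148 and 145 CPM with the activator, against 199 and 189 CPM with DMSO (-0.40, adjusted p = 2.01e-05, limma). 1700123O21Rik overlaps the neuronal splicing regulator Rbfox1 on the same strand and had 1.63 and 1.69 CPM with the activator, against 5.55 and 4.94 CPM with DMSO. Its fall (-1.23, adjusted p = 1.74e-07) contrasts with Rbfox1, which had 178 and 173 CPM with the activator and 159 and 161 CPM with DMSO and was not called (0.13, adjusted p = 0.197, limma).

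4932413F04Rik, opposite the transmembrane gene Tmem108, fell by 1.22 on the log2 scale, with 3.09 and 2.14 CPM with the activator, against 7.41 and 7.28 CPM with DMSO (adjusted p = 5.31e-08, limma). Tmem108 was not called, at 22.3 and 26.0 CPM with the activator and 24.6 and 21.9 CPM with DMSO. The remaining members named for the size of their fall were 4930539N22Rik and 8430431K14Rik, both annotated only in RefSeq. 4930539N22Rik had 2.83 and 3.84 CPM with the activator, against 8.91 and 8.55 CPM with DMSO (-1.18, adjusted p = 3.99e-08). 8430431K14Rik had 3.36 and 2.31 CPM with the activator, against 8.43 and 6.28 CPM with DMSO (-1.12, adjusted p = 5.16e-07). In all of these, each activator library was below each DMSO library.

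The 2 rises were small and less stable. A230056P14Rik starts within 2000 bases of the start of Nipa2, on the opposite strand, and shares 473 exonic bases with protein-coding genes. It had 33.0 and 31.9 CPM with the activator, against 22.2 and 27.9 CPM with DMSO (log2 fold change 0.37 ± 0.10, adjusted p = 0.00369, limma). Without DMSO replicate 1, the lower of the DMSO libraries, its log2 fold change was 0.21 (adjusted p = 0.277), and after scaling to nuclear protein-coding reads its adjusted p was 0.116. Nipa2, a magnesium transporter gene, was not called, at 41.8 and 38.0 CPM with the activator and 37.6 and 38.4 CPM with DMSO. B230209E15Rik, an intergenic RNA, had 58.0 and 54.8 CPM with the activator, against 49.0 and 44.6 CPM with DMSO (0.27 ± 0.09, adjusted p = 0.0139). Its call was lost without activator replicate 1 (adjusted p = 0.107) and without DMSO replicate 2 (adjusted p = 0.198).

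**Figure D2:**
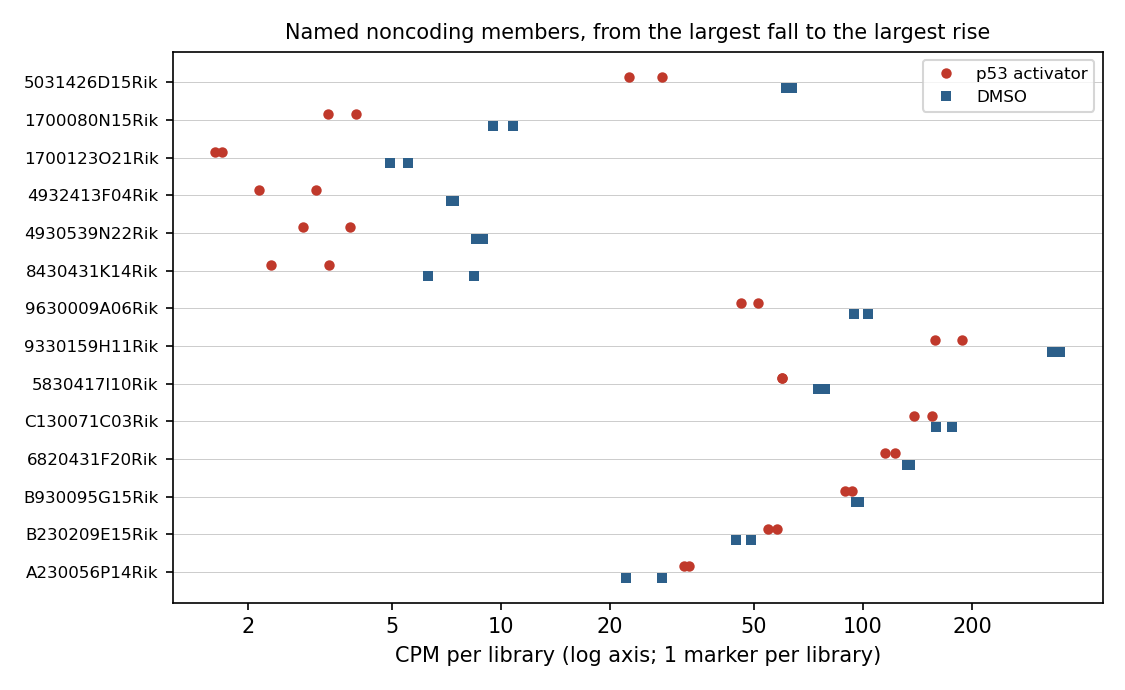
CPM of the named noncoding members in each library (log axis), with activator libraries as red circles and DMSO libraries as blue squares, ordered by log2 fold change. For 5031426D15Rik at the top the activator libraries (27.9 and 22.6 CPM) lie far left of the DMSO libraries (63.8 and 61.2 CPM), and for A230056P14Rik at the bottom the order is the other way round.

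The share that fell differed between levels, although CPM are not divided by transcript length and so also reflect it. Of 75 noncoding members at 5 to 10 CPM in DMSO, 30 fell, and the median log2 fold change was -0.31. At 10 to 20 CPM 22 of 32 fell (median -0.72), at 20 to 50 CPM 22 of 30 fell and 2 rose (median -0.63), and at 50 CPM or more 8 of 16 fell (median -0.27). Of noncoding genes without a RIKEN symbol, 71.7% fell at 5 to 10 CPM, 74.4% at 10 to 20 CPM, 82.3% at 20 to 50 CPM and 77.9% at 50 CPM or more, with medians of -0.64, -0.69, -0.77 and -0.86. The difference between RIKEN-named and other genes was not tested. Just inside the threshold, 1500035N22Rik had 4.88 and 3.44 CPM with the activator and 5.49 and 4.54 CPM with DMSO, and 4933439C10Rik had 4.62 and 6.15 CPM with the activator and 4.59 and 5.55 CPM with DMSO. Just outside it, 4930567K12Rik had 2.31 and 1.98 CPM with the activator and 5.01 and 4.74 CPM with DMSO, and 4931403G20Rik had 3.15 and 2.26 CPM with the activator and 5.14 and 4.68 CPM with DMSO.

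GENCODE places 123 of the noncoding members relative to protein-coding genes, and the share that fell was highest in antisense members. Of 37 members that overlap a protein-coding gene on the opposite strand, 31 fell and 0 rose, with a median log2 fold change of -0.86. Of 9 that overlap one on the same strand, 5 fell (median -0.63). Of 45 that start within 2000 bases of a protein-coding gene's start and run in the opposite direction, 12 fell and 1 rose (median -0.18). Some of these also share exonic bases with a protein-coding gene. Of 32 intergenic members, 11 fell and 1 rose (median -0.13). The 30 members known only from RefSeq were not placed, and 23 of them fell (median -0.71).

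Noncoding genes without a RIKEN symbol showed the same order of medians at the same minimum level. Of 145 antisense ones 82.8% fell (median -0.73), of 69 sense ones 40 fell (median -0.53), of 58 divergent ones 44.8% fell (median -0.32), and of 191 intergenic ones 67 fell and 26 rose (median -0.17). Most of the 1017 such genes had no place, and a larger share of these fell than of the antisense ones. Of all 1017, 75.2% fell. Within the antisense members, the 23 that share no exonic base with the coding gene had 21 falls and a median of -0.95. The 14 whose exons overlap those of the coding gene had 10 falls and a median of -0.53. The sources used here do not say whether reads were counted by strand. Without strand, reads of overlapping exons cannot be assigned to either gene, and reads from introns of the coding gene fall on antisense members too.

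**Figure D3:**
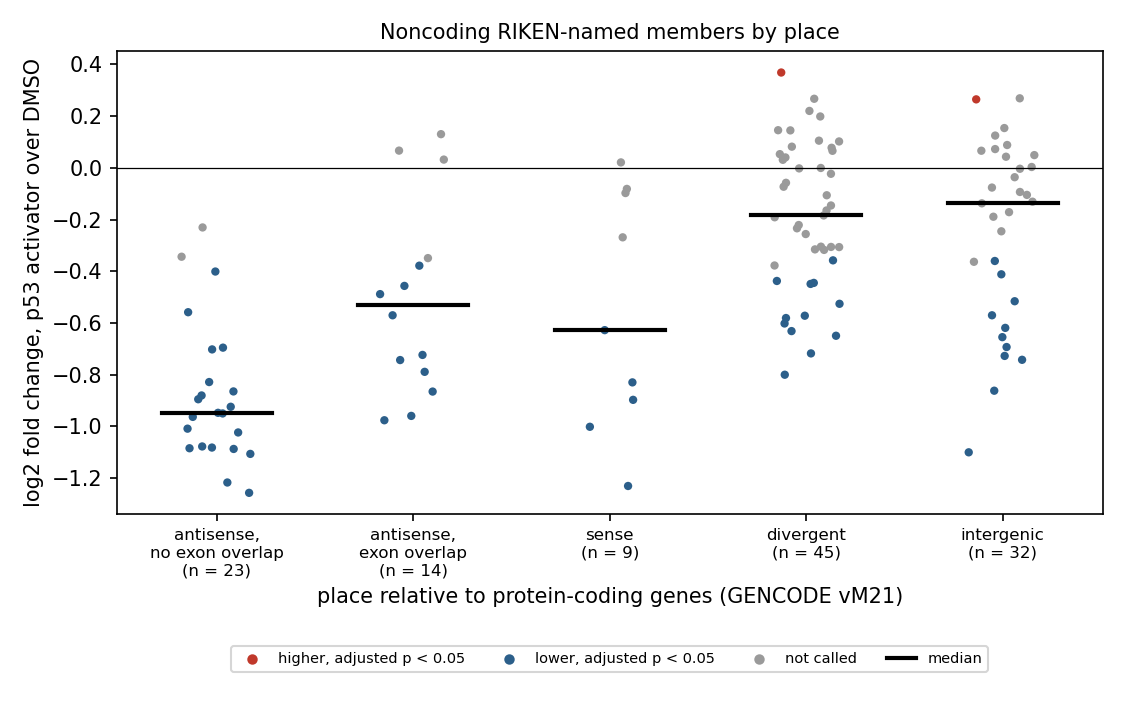
Log2 fold change, activator over DMSO, of the noncoding members that GENCODE places, 1 point per gene, by place relative to protein-coding genes, with the median of each place as a black bar. The median is -0.95 for antisense members without exon overlap, -0.53 for those with it, -0.63 for sense, -0.18 for divergent and -0.13 for intergenic members.

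The protein-coding partners of these genes did not fall with them as a rule. Of 35 partners opposite an antisense member, 9 rose (25.7%) and 6 fell (17.1%), with a median log2 fold change of 0.13, beside 20.9% and 7.37% of all nuclear protein-coding genes. Of 42 tested partners beside a divergent member, 10 rose and 3 fell. Of 46 fallen members with a tested partner, 7 stood beside a partner that rose, 9 beside one that fell and 30 beside one that was not called. Of the members not called, 14 stood beside a partner that rose, 1 beside one that fell and 23 beside one that was not called.

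Beside antisense members that fell, 5 partners rose, 6 fell and 18 were not called. The share of rises was near the 20.9% of all nuclear protein-coding genes, and the share of falls was above their 7.37%. The 5 members beside rising partners share no exon with them, and their values are given as examples. These pairs were chosen after their values were seen, and 4 of them are described. E030024N20Rik had 8.65 and 8.75 CPM with the activator, against 18.2 and 14.4 CPM with DMSO (-0.83, adjusted p = 1.12e-06). Its partner Gnaq, a G protein alpha subunit that activates phospholipase C, had 368 and 372 CPM with the activator, against 280.03 and 293 CPM with DMSO (0.37, adjusted p = 0.000118).

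1700025N21Rik had 13.01 and 8.41 CPM with the activator, against 21.6 and 21.2 CPM with DMSO (-0.96, adjusted p = 4.79e-09, limma). Its partner Chst11, a chondroitin sulfotransferase gene, had 136 and 142 CPM with the activator, against 95.6 and 110.04 CPM with DMSO (0.43, adjusted p = 7.93e-06). 4921534H16Rik had 3.36 and 3.27 CPM with the activator, against 8.30 and 6.21 CPM with DMSO (-0.92, adjusted p = 2.09e-05), while the synaptic adhesion gene Clstn2 rose by 0.38 (adjusted p = 9.53e-05). 4930405H06Rik had 2.83 and 2.31 CPM with the activator, against 6.99 and 6.08 CPM with DMSO (-1.08, adjusted p = 1.51e-06), while Rasgef1b, a Ras family exchange factor gene, rose by 0.34 (adjusted p = 0.0268). In each of these 4 pairs both activator libraries were below both DMSO libraries for the antisense RNA and above them for the coding gene. The rises of Gnaq, Chst11, Clstn2 and Rasgef1b were all lost in limma without a trend of the spread (adjusted p = 0.0544, 0.0516, 0.0854 and 0.0819). After cyclic loess normalization the rises of Gnaq, Clstn2 and Rasgef1b kept their sign and were not called (adjusted p = 0.0665, 0.0630 and 0.0562), and that of Rasgef1b was lost in 8 of 16 alternative fits. Without activator replicate 1, activator replicate 2 or DMSO replicate 1, its adjusted p was 0.0526, 0.151 and 0.265.

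The microRNA hosts shown at the start fell in 4 of 5 noncoding cases, beside 53.6% of all noncoding members and 49.6% of all nuclear noncoding genes. A330023F24Rik, the host of miR-29b and miR-29c, had 22.6 and 19.6 CPM with the activator, against 39.1 and 33.0 CPM with DMSO (log2 fold change -0.74 ± 0.11, adjusted p = 1.03e-08, limma). It shares 1079 bases with Cd46 on the opposite strand. Cd46, which encodes a complement regulator, fell too, with 20.6 and 17.6 CPM with the activator, against 33.3 and 34.1 CPM with DMSO (-0.80, adjusted p = 1.88e-09).

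The miR-344 hosts fell by similar amounts. A230057D06Rik had 25.6 and 20.9 CPM with the activator, against 42.7 and 36.3 CPM with DMSO (-0.74 ± 0.10, adjusted p = 5.99e-09, limma). A330076H08Rik had 37.3 and 30.2 CPM with the activator, against 56.2 and 53.7 CPM with DMSO (-0.69 ± 0.09, adjusted p = 2.13e-09). On GRCm38 the 2 hosts are 1446 bases apart on the same strand. B230209E15Rik, the intergenic RNA that rose, lies on that strand too, 89191 bases from A230057D06Rik. The miR-325 host 5330434G04Rik had 28.8 and 22.5 CPM with the activator, against 40.3 and 39.1 CPM with DMSO (-0.62 ± 0.10, adjusted p = 6.26e-07). These 4 falls were called in all 16 alternative fits.

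The reads measure the long host RNAs, and mature microRNAs are too short for such libraries, so no level of a mature microRNA is given. Of the members with a GENCODE position, 4 span small nucleolar RNA genes, whose products guide the modification of ribosomal RNA. The protein-coding D430041D05Rik rose and is described with its class, and the following were not called. 1110038B12Rik, the host of Snord52, had 8.23 and 8.07 CPM with the activator and 9.33 and 8.02 CPM with DMSO (adjusted p = 0.742, limma). 2410006H16Rik, the host of Snord49a, Snord49b and Snord65, had 14.2 and 13.9 CPM with the activator and 15.1 and 16.03 CPM with DMSO (adjusted p = 0.431). The protein-coding 2410002F23Rik, which spans Snord88a and Snord88c, had 42.9 and 45.4 CPM with the activator and 40.2 and 41.1 CPM with DMSO (adjusted p = 0.342).

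**Figure D4:**
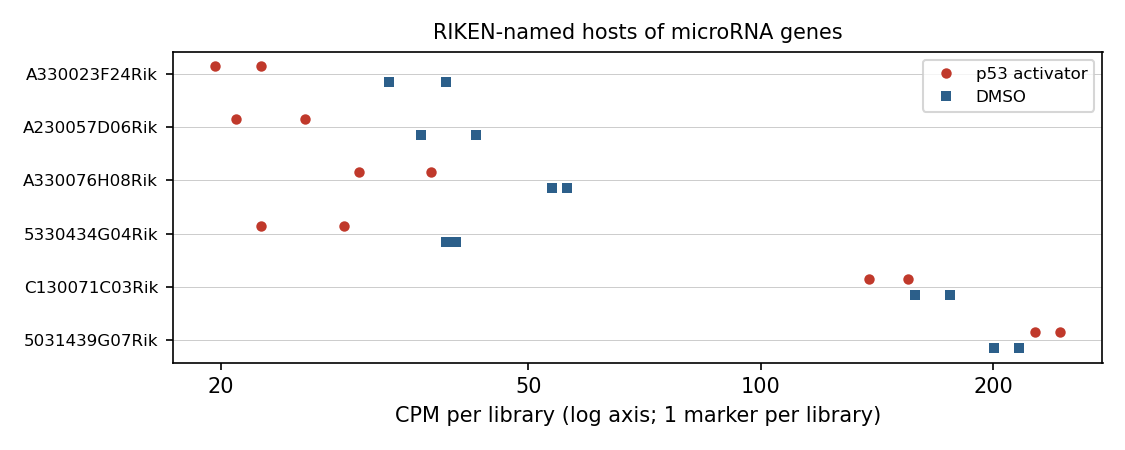
CPM of the 6 RIKEN-named microRNA hosts in each library (log axis), with activator libraries as red circles and DMSO libraries as blue squares, ordered by log2 fold change. The 4 hosts that fell have both activator libraries below both DMSO libraries, as in A330023F24Rik with 22.6 and 19.6 CPM against 39.1 and 33.0 CPM.

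Promoter windows of 300 bases around annotated starts were found in RefSeq (GRCm38.p6) for 182 of the 249 members. CG dinucleotides, which are dense in promoters that form CpG islands, had a lower median in the windows of members that fell, given here as a description. The median count per window was 4 for noncoding members that fell, 17.5 for the 2 that rose and 15 for those not called. It was 6 for protein-coding members that fell, 26 for those that rose and 19 for those not called, against 7 over all 32851 windows. A TATAAA box on either strand was in 12.7% of 134 noncoding windows and 7.69% of 91 protein-coding windows, against 13.6% of all windows. The decamer to which p53 binds, on either strand, was in 9.70% of noncoding and 4.40% of protein-coding windows, against 8.36% of all. A pair of such decamers with up to 13 bases between them was in 0 windows of members and in 24 of all windows (0.0731%).

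3 windows are shown, with each CG in capitals, to set the promoters of an antisense member and a microRNA host that fell beside that of a protein-coding member that rose. The window of 9630009A06Rik is chr15:30966674-30966973 on the minus strand and holds 10 CG, that of A330023F24Rik is chr1:195017149-195017448 on the plus strand and holds 7, and that of B230219D22Rik is chr13:55692874-55693173 on the plus strand and holds 39.
9630009A06Rik: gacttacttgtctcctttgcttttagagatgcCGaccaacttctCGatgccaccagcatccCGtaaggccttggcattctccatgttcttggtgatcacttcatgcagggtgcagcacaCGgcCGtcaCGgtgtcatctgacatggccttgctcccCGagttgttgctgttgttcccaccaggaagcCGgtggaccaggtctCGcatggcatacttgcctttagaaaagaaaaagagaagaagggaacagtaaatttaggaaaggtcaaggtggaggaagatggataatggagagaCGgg
A330023F24Rik: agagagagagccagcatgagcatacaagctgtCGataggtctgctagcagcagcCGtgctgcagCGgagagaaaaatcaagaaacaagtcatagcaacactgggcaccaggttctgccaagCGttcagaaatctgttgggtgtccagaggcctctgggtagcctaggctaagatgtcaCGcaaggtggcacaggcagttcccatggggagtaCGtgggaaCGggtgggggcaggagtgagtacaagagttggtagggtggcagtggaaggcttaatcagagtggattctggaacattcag
B230219D22Rik: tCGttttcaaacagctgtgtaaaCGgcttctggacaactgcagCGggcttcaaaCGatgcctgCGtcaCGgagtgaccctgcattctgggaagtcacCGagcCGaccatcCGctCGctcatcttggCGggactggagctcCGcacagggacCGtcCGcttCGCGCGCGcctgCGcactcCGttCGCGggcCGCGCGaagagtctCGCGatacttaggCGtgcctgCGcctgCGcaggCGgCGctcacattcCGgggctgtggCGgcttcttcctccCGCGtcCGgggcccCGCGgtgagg
None of the 3 windows holds a TATAAA box or a p53 decamer.

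The second comparison asked the same of the 92 protein-coding members. In total 11 fell, 11 rose and 70 did not pass the test. The rises stayed under 1.5-fold, while 5 of the falls reached 1.5-fold and 2 of these 2-fold. The median log2 fold change was 0.064, with a range of -1.22 to 0.43, and that of all nuclear protein-coding genes was 0.092. Falls and rises were 11.96% of the list each, and among the 13133 nuclear protein-coding genes tested 7.37% fell and 20.9% rose. This background has no minimum of 5 CPM in DMSO. Of 10499 protein-coding genes without a RIKEN symbol at that minimum, 7.10% fell and 25.6% rose, with a median of 0.12. The members thus rose less often than these genes, a difference that was not tested. The groups did not overlap for 18 members that were lower and 35 that were higher with the activator, and over all nuclear protein-coding genes these shares were 20.2% and 44.7%. The summed level of the protein-coding members was 3758 and 3687 CPM with the activator, against 3360 and 3483 CPM with DMSO. Without DMSO replicate 1 only 5 fell and 5 rose, and after scaling to nuclear protein-coding reads 16 fell and 2 rose, with a median of -0.068.

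Called rises were more frequent at higher levels. Of 16 members at 50 CPM or more in DMSO 6 rose (median log2 fold change 0.18). Of 28 members at 5 to 10 CPM 0 rose and 4 fell (median 0.037). The SE was larger at low levels, as in 9130023H24Rik (0.17) beside B230219D22Rik (0.08), so a rise of the same size passed the test less readily there. Of protein-coding genes without a RIKEN symbol at 50 CPM or more, 45.1% rose. At 5 to 10 CPM 4.26% of such genes rose and 6.26% fell, so their called rises were also more frequent at higher levels.

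Among the most abundant protein-coding members, D430041D05Rik had 314 and 381 CPM with the activator, against 251 and 284 CPM with DMSO, and rose (log2 fold change 0.37 ± 0.08, adjusted p = 0.000168, limma). Without activator replicate 2, the higher of the activator libraries, it was not called (adjusted p = 0.0871). B230219D22Rik, whose CG-rich promoter is printed above, had 149.9 and 145 CPM with the activator, against 107 and 119 CPM with DMSO (0.38 ± 0.08, adjusted p = 5.39e-05). 6430548M08Rik, the mouse gene of KIAA0513, had 139 and 144 CPM with the activator, against 103 and 124 CPM with DMSO (0.32, adjusted p = 0.000914), and was not called without DMSO replicate 1 (adjusted p = 0.196).

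Others of that level did not pass the test. D430019H16Rik had 442 and 415 CPM with the activator and 362 and 422 CPM with DMSO, with overlapping groups (adjusted p = 0.209, limma). The miR-1249 host 5031439G07Rik had 244 and 226 CPM with the activator and 200.5 and 216 CPM with DMSO (0.18, adjusted p = 0.0690). A830018L16Rik had 134 and 121 CPM with the activator and 112 and 116 CPM with DMSO (adjusted p = 0.113), and 9330159F19Rik had 146 and 148 CPM with the activator and 130.3 and 147 CPM with DMSO (0.08 on the log2 scale).

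The largest rise was that of B630019K06Rik, which GENCODE gives as protein-coding and RefSeq as a pseudogene, at 18.04 and 17.6 CPM with the activator, against 14.3 and 11.8 CPM with DMSO (0.43, adjusted p = 0.00579, limma). It was not called without DMSO replicate 2 (adjusted p = 0.148). 5730409E04Rik had 18.8 and 16.9 CPM with the activator, against 12.9 and 14.0 CPM with DMSO (0.38, adjusted p = 0.0138), and was not called without activator replicate 1 (adjusted p = 0.140) or DMSO replicate 1 (adjusted p = 0.142). The other rises were those of 1110004F10Rik (0.36), 2210016L21Rik (0.31), 2510009E07Rik (0.31), 2510039O18Rik (0.27), 5730455P16Rik (0.27) and 9530068E07Rik (0.20), as log2 fold changes.

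The 4 largest falls belonged to genes that GENCODE classes as protein-coding and RefSeq as noncoding. 5530401A14Rik had 3.30 and 3.67 CPM with the activator, against 10.4 and 8.55 CPM with DMSO (-1.22, adjusted p = 7.63e-09, limma). 1700086D15Rik had 6.14 and 5.02 CPM with the activator, against 14.8 and 11.5 CPM with DMSO (-1.10, adjusted p = 1.04e-08). 4930404H24Rik had 5.56 and 5.64 CPM with the activator, against 11.2 and 9.49 CPM with DMSO (-0.78, adjusted p = 5.71e-05). A630089N07Rik had 2.62 and 2.77 CPM with the activator, against 6.24 and 4.14 CPM with DMSO (-0.72, adjusted p = 0.00163), and was not called without DMSO replicate 1 (adjusted p = 0.162). In all, 7 members have this split class, of which 4 fell and 1 rose, and with the RefSeq class used instead 7 protein-coding members fell.

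Among genes coding in both annotations, 4930590J08Rik had 4.30 and 3.78 CPM with the activator, against 7.34 and 6.28 CPM with DMSO (-0.63, adjusted p = 0.00306, limma), and was not called without DMSO replicate 1 (adjusted p = 0.0800). D130037M23Rik, classed by RefSeq alone, had 18.8 and 14.0 CPM with the activator, against 24.3 and 21.5 CPM with DMSO (-0.47, adjusted p = 0.00128), and was not called without activator replicate 2 (adjusted p = 0.142) or DMSO replicate 1 (adjusted p = 0.0652). The other falls were those of 2700097O09Rik (-0.44), E130308A19Rik (-0.43), 4933427D14Rik (-0.39), 2210408I21Rik (-0.34) and D130040H23Rik (-0.29), as log2 fold changes. Next to the threshold, 9130023H24Rik just inside had 4.88 and 5.36 CPM with the activator and 5.62 and 4.94 CPM with DMSO. Just outside, A430005L14Rik had 6.40 and 5.93 CPM with the activator and 4.25 and 5.48 CPM with DMSO, and 1700029J07Rik had 3.25 and 2.54 CPM with the activator and 4.66 and 5.14 CPM with DMSO.

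**Figure D5:**
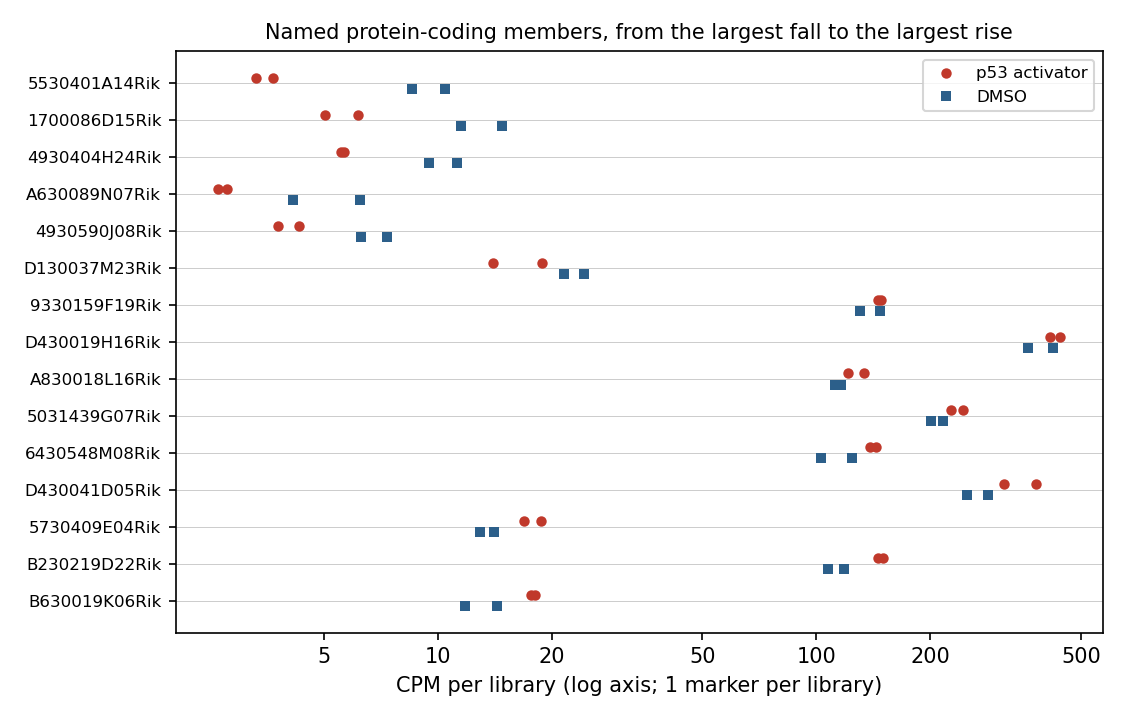
CPM of the named protein-coding members in each library (log axis), with activator libraries as red circles and DMSO libraries as blue squares, ordered by log2 fold change. The falls at the top are at low levels, as in 5530401A14Rik (3.30 and 3.67 CPM against 10.4 and 8.55 CPM), and the rises at the bottom are smaller, as in B630019K06Rik (18.04 and 17.6 CPM against 14.3 and 11.8 CPM).

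Of the 4 members without a class, 2 fell. 4930551E15Rik had 32.4 and 26.2 CPM with the activator, against 59.2 and 55.5 CPM with DMSO (-0.95, adjusted p = 9.19e-15, limma), and A730099G02Rik had 5.30 and 3.22 CPM with the activator, against 9.94 and 9.89 CPM with DMSO (-1.08, adjusted p = 2.19e-07). 2310058N22Rik had 81.4 and 83.5 CPM with the activator and 80.2 and 92.4 CPM with DMSO, and 2510022D24Rik had 5.40 and 3.61 CPM with the activator and 6.03 and 4.88 CPM with DMSO, and neither was called.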

How the data were processed

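The authors deposited 1 table of CPM per library for 18854 genes. No header names the unit, which was read from the values: each column is made of whole multiples of 1 step, and the steps gave whole reads for 100% of values within 0.01 reads. TopHat2, Cufflinks 2.0.0 and the build mm9 are named, without roles, per the submitters' processing notes. No source names the read counter, the annotation or whether strand was used. The titles name DMSO where the treatment label of the same samples reads as untreated, and the titles were followed.

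The filter on low values, 1 CPM or more in 2 or more libraries, left 16654 genes. All 249 members passed, and 379 of the 563 RIKEN-named genes under the threshold passed too. limma 3.58.1 in R 4.3.3 was fitted to log2(CPM + 1) of the 4 libraries, with a trend of the spread, 2 residual and 98.0 prior degrees of freedom, two-sided p-values and Benjamini-Hochberg adjustment over all genes tested. The SE of the log2 fold changes had a median of 0.13. The fit was also run on simulated counts with few changed genes, as many up as down. Many more genes were called in these data, and no result here rests on those runs. The analysis plan assumed FPKM, and the same test was used on CPM.

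Class and place came from GENCODE vM21 by symbol, and class from RefSeq GRCm38.p6 otherwise. Pseudogenes count as noncoding. These builds differ from mm9, so no coordinates are given other than those of printed sequences. Named in each class were the 6 members highest in DMSO, the 6 largest falls and 4 largest rises among called members without overlap of the groups, the 2 genes on either side of the threshold, microRNA and small nucleolar RNA hosts, and coding partners. A few hosts on the list were not found under their symbols. Hosts other than A330023F24Rik, C130071C03Rik and 1110038B12Rik were taken from the annotation, and they, the antisense pairs, the remaining called protein-coding members and the members without a class were named after values were seen. Members and lists were chosen with earlier results of these data known. Alternatives were other pseudocounts, filters, scalings, variance models, memberships, a replicate block, each library left out, and edgeR 4.0.16 and DESeq2 1.42.0 run on whole reads recovered from CPM. The memberships by 1 DMSO library and the use of the RefSeq class first were added after the data were seen. An antisense pair is not reported here.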

Additional observations from a re-analysis of the deposited data

How the results depend on the processing

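With 2 libraries a group, the calls draw on a spread pooled over genes. Of the 82 noncoding falls 56 were called in all 16 alternative fits, and of the 11 protein-coding falls 3 were, but 0 of the 2 noncoding and 0 of the 11 protein-coding rises. Values of the named genes kept their direction wherever they were called, in 932 cases on the same side of the threshold, with 28 gained and 73 lost calls.

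Noncoding rises, 2 as reported, numbered 1 after quantile normalization, 1 after cyclic loess, and 0 after scaling to nuclear protein-coding reads, without the trend and with DESeq2. Members by 1 DMSO library gave 1 rise with either library. Protein-coding rises, 11 as reported, numbered 5 after cyclic loess, 2 after scaling to nuclear protein-coding reads, 0 without the trend, 4 with DESeq2, and 5 with members by DMSO replicate 1. Protein-coding falls, 11 as reported, numbered 6 without the trend, 7 with members from 10 CPM, 7 with the RefSeq class first, and 5 with members by DMSO replicate 1. Scaling to nuclear protein-coding reads moved the median of all genes by -0.13 and turned the protein-coding median to -0.068. Noncoding falls numbered 52 with members from 10 CPM, where the noncoding median was -0.63. With members by the activator mean it was -0.31. The cause of these differences was not tested, apart from the fewer members of the stricter limit.

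Leaving out 1 library at a time gave 64 to 81 noncoding falls, 1 to 4 noncoding rises and noncoding medians of -0.50 to -0.36. It gave 5 to 13 protein-coding falls, 5 to 10 rises and medians of 0.058 to 0.10. edgeR called 86 noncoding falls and 2 rises, and 13 protein-coding falls and 9 rises. With the replicate number as a block, 86 noncoding members fell and 3 rose, and 15 protein-coding members fell and 20 rose. Deviations of same-numbered libraries correlated at 0.117 over the genes tested, in 2 pairs that no label joins, so the numbers are not shown to pair the samples.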

Other observations

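RIKEN-named genes below 5 CPM in DMSO had more falls than rises. Of 313 noncoding ones tested 80 fell (25.6%) and 1 rose, with a median log2 fold change of -0.27. Among all nuclear noncoding genes 49.6% fell and 1.71% rose. Of 65 protein-coding ones tested 13 fell (20%) and 2 rose (3.08%), with a median of -0.18, against 0.064 for the protein-coding members. Among all nuclear protein-coding genes 7.37% fell and 20.9% rose. The minimum of 5 CPM in DMSO left out 9 RIKEN-named genes that reached it with the activator. Of these 1 rose, 1600014C10Rik, with 5.66 and 4.46 CPM with the activator, against 3.09 and 3.47 CPM with DMSO (log2 fold change 0.50, adjusted p = 0.0288, limma).

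By GENCODE's own types, 29 of 37 noncoding members of the antisense type fell, 13 of 37 of the lincRNA type and 7 of 25 processed transcripts. Of 13 pseudogenes 6 fell, among them 4933409K07Rik, which RefSeq alone gives as a pseudogene. Of 7 RNAs of the bidirectional promoter type 1 fell. Over all noncoding members 53.6% fell, and over all nuclear noncoding genes 49.6%. Of 8 noncoding members with 1 exon 5 fell, and of 115 spliced ones 54 fell and 2 rose. The noncoding members that fell had a median exonic length of 2570 bases, against 3231.5 bases for those not called.

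The table also lists hosted microRNA genes themselves, at low levels, where 1 read is 0.052 to 0.069 CPM. These genes lie within the spans of their hosts, so their reads cannot be told from reads of the host RNA. Mir344-2 had 1.89 and 1.47 CPM with the activator, against 2.47 and 3.21 CPM with DMSO (log2 fold change -0.52, adjusted p = 0.0383, limma). Mir344 had 0.42 and 0.23 CPM with the activator, against 1.44 and 0.53 CPM with DMSO. Mir1249 had 0.42 and 0.45 CPM with the activator, against 1.03 and 0.87 CPM with DMSO. Mir344 and Mir1249 did not pass the filter on low values.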
